A study of Homo sapiens with 4 samples.

Results

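IFI44, IFI44L, IFI6, IFI27, IFI35, XAF1, CMPK2, EPSTI1, SAMD9 and SAMD9L are human interferon-stimulated genes that stand outside the large MX, OAS, IFIT and GBP families. The 10 genes, of 58735 in the count files, were chosen by symbol because their reads were more abundant after knockdown of RALY, so their levels and fold changes in that comparison are given as a description and carry no test. RALY binds RNA and belongs to the hnRNP proteins. Counts came from polyadenylated RNA of A549, an established line from a human lung adenocarcinoma, labelled as basal epithelial cells of the alveolus. There were 2 libraries of cells given a lentivirus with a hairpin against RALY (shRALY, genotype label RALY knockdown) and 2 libraries of cells given a control hairpin lentivirus (shControl, genotype label WT), all at a time labelled day 2. Both groups were thus infected cells in medium with fetal bovine serum and antibiotics. The labels give no hairpin sequence and do not say whether libraries of a group came from separate cultures, so the spread between them may be technical.

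Libraries held 18632787 and 16823605 counts in shRALY and 17587717 and 16745818 counts in shControl. Levels are counts scaled to library size with TMM factors (CPM), on which 3 counts, the floor used here for a gene with none, correspond to 0.163 to 0.183 CPM. RALY itself averaged 41.2 ± 0.47 CPM in shRALY and 128 ± 7.15 CPM in shControl (SD, n = 2 each), a log2 difference of -1.64 with an adjusted p of 5.85e-11 in edgeR's quasi-likelihood test over 15912 genes. All 8 listed epithelial genes of A549 cells were expressed, with summed levels of 15338 and 15499 CPM in shRALY and 15234 and 14736 CPM in shControl; ALDH1A1, KRT8 and AKR1B10 carried most of these sums. In edgeR 5 of the 8 did not pass, KRT19 was higher in shRALY (log2 1.71, adjusted p = 1.35e-11), CDH1 was higher (log2 0.47, adjusted p = 0.019), and AKR1C1, which shares sequence with its paralogs, was lower (log2 -0.56, adjusted p = 6.77e-05). The CDH1 call was lost without shRALY replicate 2 (adjusted p = 0.253) and without shControl replicate 1 (0.134). The 13 listed immune-cell genes summed to 13.4 and 9.36 CPM in shRALY and 11.8 and 13.4 CPM in shControl, and CD3E, MS4A1, LYZ, FCGR3A and CLEC4C had no read in any library. None of the 4 immune-cell genes that could be tested passed in edgeR, at an adjusted p or at an unadjusted p under 0.05, or in DESeq2. In bulk RNA, a change in the share of cells that express a gene and a change in RNA per cell cannot be told apart.

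Type I and type III interferons bind receptors at the cell surface, and the kinases JAK1 and TYK2 then phosphorylate transcription factors, STAT2 among them. STAT2 joins IRF9 in the complex ISGF3, which binds the interferon-stimulated response element (ISRE) in promoters and raises the transcription of many genes. Airway and alveolar epithelial cells make both kinds of interferon and respond to them. The proteins described here act late in that programme, on viral replication, cell death, nucleotide supply and translation.

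The core of an ISRE holds GAAA repeats a fixed distance apart, and it was looked for as GAAA, any 2 bases and GAAA, on either strand, in RefSeq windows that run from 250 bases before to 50 bases after a transcription start (GRCh38.p14). All 10 genes had a window, and 6 of them held the core in at least 1 window, against 4.38% of the 27305 genes with windows. For each of the 6 genes the match nearest the start is shown, because this sequence feature played no part in how the genes were selected. Each line gives 40 bases on the strand of the gene, and capitals mark each match in it, which reads as this motif or as its reverse complement. The stretch of IFI27 holds 2 matches, 108 and 95 bases before the start. Not shown are a further match in IFI44L, 164 bases before the start, and 2 in IFI6, 156 and 115 bases before it.
IFI44, chr1:78649749-78649788, plus strand: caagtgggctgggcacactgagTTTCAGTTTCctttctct
IFI44L, chr1:78620360-78620399, plus strand: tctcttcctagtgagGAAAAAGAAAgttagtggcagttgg
IFI6, chr1:27672261-27672300, minus strand: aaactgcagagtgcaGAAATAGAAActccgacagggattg
IFI27, chr14:94110626-94110665, plus strand: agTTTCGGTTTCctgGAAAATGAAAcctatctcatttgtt
EPSTI1, chr13:42992267-42992306, minus strand: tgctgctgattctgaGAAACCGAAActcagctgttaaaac
SAMD9, chr7:93118091-93118130, minus strand: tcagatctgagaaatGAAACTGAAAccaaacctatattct

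Another spacing of the 2 GAAA repeats was then looked for. A form with a gap of 1 base, GAAANGAAA, was searched after these promoters had been seen and occurred in IFI44, IFI35, XAF1, CMPK2 and SAMD9, against 3.87% of genes with windows. The 3 genes that held this form and not the one above are shown next, with the match in capitals.
IFI35, chr17:43006744-43006783, plus strand: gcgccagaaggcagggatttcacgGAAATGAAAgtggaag
XAF1, chr17:6756010-6756049, plus strand: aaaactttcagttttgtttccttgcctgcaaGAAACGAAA
CMPK2, chr2:6865820-6865859, minus strand: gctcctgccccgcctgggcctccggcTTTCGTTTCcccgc
The gamma-activated sequence, the element of type II interferon responses, was searched as TTCNNNGAA, whose letters read the same on both strands. It occurred in IFI27, IFI35 and EPSTI1, against 9.38% of genes. In each of these 3 genes it shared bases with a GAAA match shown above. SAMD9L held none of these motifs in its windows. A longer run of 3 GAAA repeats, each any 2 bases from the next, occurred in none of the 10 genes and in 0.187% of genes. A match is a string of letters and not a measured binding site.

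The 10 genes took 0.107% and 0.113% of all counts in the shRALY libraries, against 0.00470% and 0.00452% in the shControl libraries. Their summed level was 1085 and 1159 CPM in shRALY and 46.2 and 44.4 CPM in shControl. All 10 lay higher in both shRALY libraries than in both shControl libraries and all 10 passed the test, in a comparison in which 20.6% of the 15912 tested genes were called higher and 34.2% had both shRALY libraries above both shControl libraries. Since the genes were selected on this contrast, nothing is read from those counts. The members' median log2 difference was 6.28, against -0.01 over all tested genes. IFI44, IFI44L, XAF1, CMPK2 and EPSTI1 had fewer than 10 counts in each shControl library and so passed the filter on low counts only through their shRALY libraries.

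**Figure D1:**
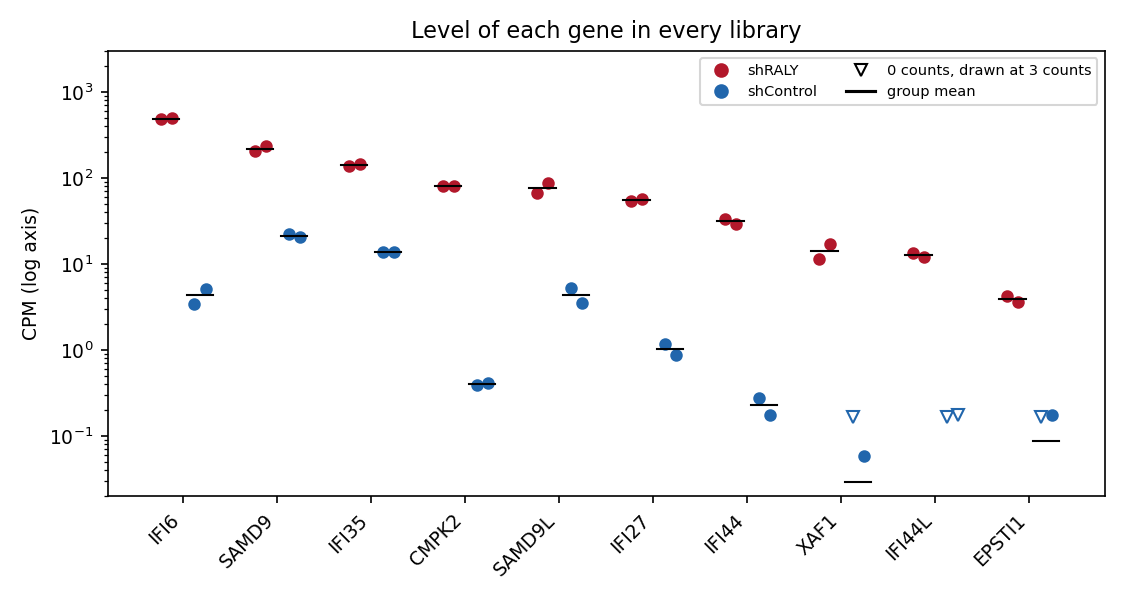
Level of each of the 10 genes in every library, in CPM on a log axis, with shRALY to the left of shControl. Points are libraries, bars are group means that count a library without reads as 0 (a mean of 0 is not drawn), and open triangles are libraries with no read, drawn at the 3-count floor. No shRALY point falls to the height of a shControl point of the same gene, and IFI6 is the most abundant gene in shRALY at 478 and 497 CPM.

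IFI44 and IFI44L are related genes that lie next to each other on chromosome 1, 3650 bases apart on the same strand. IFI44 encodes a cytoplasmic protein first described in the microtubular aggregates of hepatitis C infection. IFI44 (ENSG00000137965, chr1:78649796-78664078) had 33.3 and 29.3 CPM in shRALY (613 and 479 counts), against 0.279 and 0.176 CPM in shControl (5 and 3 counts). The shControl libraries were thus at about the floor, and the groups lay 7.05 apart on the log2 scale (SE 0.29). IFI44L (ENSG00000137959, chr1:78619922-78646145) had 13.4 and 11.9 CPM in shRALY, from 247 and 195 counts, and no count in either shControl library. It was at least 148-fold higher in shRALY, computed against 3 counts over the shControl group. Per kilobase of exonic sequence, IFI44 stood 12.4-fold above IFI44L in shRALY, or 8.60-fold when the longest transcript of each was used.

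IFI6 and IFI27 encode small hydrophobic proteins of one family. IFI6 is known to protect cells from death signals at mitochondria and to limit flaviviruses at the endoplasmic reticulum, and IFI27 is a mitochondrial protein that sensitises cells to apoptosis and a common blood marker of viral infection. IFI6 (ENSG00000126709, chr1:27666061-27672218, minus strand) had 478 and 497 CPM in shRALY, against 3.46 and 5.17 CPM in shControl. The 2 shRALY libraries were close to each other, and the log2 difference was 6.82 (SE 0.16), a 113-fold change. IFI27 (ENSG00000165949, chr14:94104836-94116698) had 53.6 and 57.0 CPM in shRALY, against 1.17 and 0.881 CPM in shControl, a log2 difference of 5.74 (SE 0.20). Here too the groups did not overlap. The per-length level of IFI6 was 42.2-fold that of IFI27 in shRALY and 20.1-fold in shControl, and 25.5-fold and 12.2-fold with the longest transcripts.

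XAF1 binds the caspase inhibitor XIAP and antagonises it. XAF1 (ENSG00000132530, chr17:6755447-6775647) had 11.4 and 16.8 CPM in shRALY, from 209 and 275 counts, against 0 and 1 count in shControl. The ratio of its counts, scaled for depth, was 487, with a 95% counting interval of 87.0 to 19270, so the size of the difference is poorly fixed although both shRALY libraries were far above both shControl libraries. A gene on the opposite strand, PRAL, overlaps 38.3% of the exonic bases of XAF1, and the strand setting of the counting is not given in the sources used here. PRAL had 15 and 6 counts in shRALY and 0 and 0 in shControl, so reads of the 2 genes may not be separable.

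CMPK2 is a mitochondrial nucleoside monophosphate kinase that phosphorylates UMP, CMP and their deoxy forms. It lies beside RSAD2, which encodes viperin, an enzyme that turns CTP into a chain terminator of viral RNA synthesis. CMPK2 (ENSG00000134326, chr2:6840570-6866635, minus strand) had 81.4 and 81.0 CPM in shRALY, against 0.391 and 0.411 CPM in shControl, from 7 counts in each shControl library. Libraries of a group were nearly equal, and the log2 difference of 7.64 (SE 0.21) corresponds to 199-fold. RSAD2, on the opposite strand, had 34.5 and 44.5 CPM in shRALY and no count in shControl, which is at least 460-fold higher (edgeR adjusted p = 5.16e-15). The annotated exons of the 2 genes share 0.3% of the exonic bases of CMPK2.

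IFI35 is a leucine-zipper protein that binds NMI, with which it is released from damaged or infected cells. IFI35 (ENSG00000068079, chr17:43006725-43014456) had 138 and 144 CPM in shRALY, against 13.6 CPM in both shControl libraries. Its shControl level, which rested on 244 and 232 counts, was second only to that of SAMD9 among the 10 on the CPM scale, and its log2 difference was 3.37 (SE 0.13). NMI had 43.0 and 47.8 CPM in shRALY, against 15.8 and 14.2 CPM in shControl, a log2 difference of 1.60 with an edgeR adjusted p of 2.92e-09.

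EPSTI1 was first found in breast cancer cells grown with stromal cells. It was the least abundant of the 10 in shRALY. EPSTI1 (ENSG00000133106, chr13:42886388-42992271, minus strand) had 4.19 and 3.61 CPM in shRALY, from 77 and 59 counts, against 0 and 3 counts in shControl. The depth-scaled ratio of counts was 45.6, with a 95% counting interval of 15.3 to 224. Without shControl replicate 1 the fitted log2 difference of EPSTI1 was 4.41, and without shControl replicate 2, whose counts alone were above 0, it was 9.11, which is set by the prior count and is no bound.

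SAMD9 and SAMD9L are large cytoplasmic proteins that restrict poxviruses and restrain translation and growth, and germline changes in either gene cause bone marrow failure syndromes. They are paralogs 12031 bases apart on the minus strand of chromosome 7. SAMD9 (ENSG00000205413, chr7:93099513-93118023) had 205 and 232 CPM in shRALY, against 22.1 and 20.4 CPM in shControl, a log2 difference of 3.36 (SE 0.12). SAMD9L (ENSG00000177409, chr7:93130055-93148369) had 67.3 and 86.2 CPM in shRALY, against 5.19 and 3.52 CPM in shControl, a log2 difference of 4.13 (SE 0.18). Both genes were highest in shRALY replicate 2, and neither had overlapping groups. SAMD9 exceeded SAMD9L 2.97-fold per length in shRALY and 5.07-fold in shControl.

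**Figure D2:**
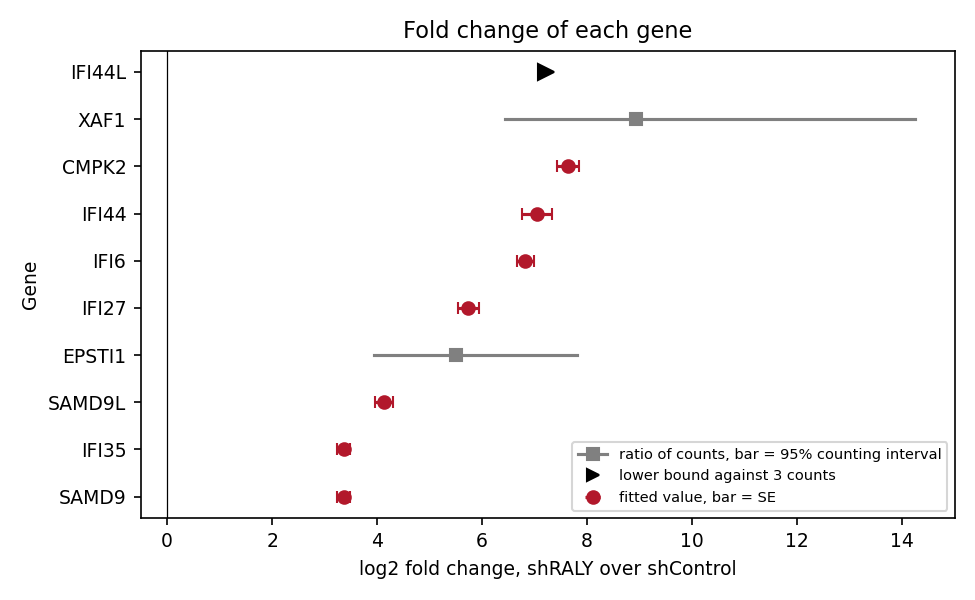
Log2 difference, shRALY over shControl, of each gene, with bars of 1 SE from the edgeR fit where shControl held more than 3 counts. IFI44L is drawn at its bound of 7.21, and XAF1 and EPSTI1 at their count ratios with 95% counting intervals; SAMD9, IFI35 and SAMD9L lie lowest, at 3.36, 3.37 and 4.13.

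Fitted log2 differences of IFI44L and XAF1 were the highest of the 10, and with 0 and 1 shControl count they depend on the prior count. In a ranking of all 15912 tested genes by fitted log2 difference, 8 of the 10 were among the highest 100, with IFI44L at rank 4, XAF1 at 18, CMPK2 at 27, IFI44 at 33, IFI6 at 36, IFI27 at 53, EPSTI1 at 57 and SAMD9L at 83. IFI35 and SAMD9 stood at 124 and 125. These are the ranks of genes selected for this change.

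Levels of different genes were compared per kilobase of exonic sequence (CPM per kb). In shRALY the order was IFI6 at 563, IFI35 at 71.3, SAMD9 at 31.9, CMPK2 at 18.9, IFI44 at 15.4, IFI27 at 13.3, SAMD9L at 10.8, XAF1 at 2.13, IFI44L at 1.24 and EPSTI1 at 0.792 CPM per kb. The libraries of neighbours in this order did not overlap in any of the 9 pairs, but IFI27 moved above IFI44 when the longest transcript was used in place of all exonic bases. The highest mean was 712-fold the lowest. Set against the 13161 tested protein-coding genes, IFI6 lay above 99.7% of them in shRALY, IFI35 above 96.4% and EPSTI1 above 16.1%. A high fold change thus did not go with a high level in each case, since IFI44L lay above 21.7% of coding genes and XAF1 above 30.3%.

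The order was another one in shControl, where IFI35 stood highest at 6.90 CPM per kb, ahead of IFI6 at 4.99, SAMD9 at 3.10 and SAMD9L at 0.611 CPM per kb. Libraries of neighbours in the shControl order did not overlap in 6 of 9 pairs. CMPK2 was above 83.1% of tested coding genes in shRALY and 1.98% in shControl, and IFI44 above 78.9% in shRALY and 2.47% in shControl. IFI35 moved less in this scale, at 96.4% in shRALY and 58.0% in shControl. IFI6 made up 43.4% of the members' summed CPM in shRALY and 9.52% in shControl. SAMD9 made up 19.5% in shRALY and 46.9% in shControl.

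The shRALY libraries differed from each other in both directions. XAF1 was 1.48-fold, SAMD9L 1.28-fold and SAMD9 1.13-fold higher in shRALY replicate 2 than in replicate 1, while EPSTI1 was 1.16-fold, IFI44 1.14-fold and IFI44L 1.13-fold higher in replicate 1. In all, 6 genes were higher in replicate 2 and 4 in replicate 1. Over the 12073 genes with at least 3 CPM in both shRALY libraries, the log2 ratio of replicate 1 to replicate 2 had an SD of 0.20. XAF1, at -0.56, and SAMD9L, at -0.36, lay farthest from 0 among the 10, and these differences are small beside those between the groups.

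Genes that flank the 10 on the chromosome were compared in the same fit. Of 16 protein-coding neighbours, 7 could be tested: RSAD2 and IFI27L2 were higher in shRALY, CDK6 and RPL27 were lower, and VAT1, FAM76A and IFI27L1 did not pass. RSAD2 had no shControl count, so it passed the filter on low counts only through shRALY. VAT1, which lies 0.149 kb from IFI35, averaged 378 ± 4.88 CPM in shRALY and 349 ± 18.7 CPM in shControl, a log2 difference of 0.12 (edgeR adjusted p = 0.378). RPL27, a ribosomal protein gene on the other side of IFI35, averaged 381 ± 22.9 CPM in shRALY and 486 ± 23.8 CPM in shControl (log2 -0.35, edgeR adjusted p = 0.00817). RPL27 no longer passed in edgeR when shRALY replicate 1 (log2 -0.40, adjusted p = 0.102) or 2 (log2 -0.28, adjusted p = 0.292) was left out. CDK6, a cell cycle kinase 263 kb from SAMD9, had a log2 difference of -0.39 (edgeR adjusted p = 0.00935), which was not called without shRALY replicate 1 (log2 -0.24, adjusted p = 0.404). ADGRL4, FAM216B, FGR, HEPACAM2 and SOX11 had no count in any library.

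The IFI27 locus holds 2 further members of its family. IFI27L1, 0.99 kb from IFI27, averaged 6.74 ± 0.678 CPM in shRALY and 7.12 ± 0.354 CPM in shControl, a log2 difference of -0.08 (edgeR adjusted p = 0.796). IFI27L2, 11.1 kb away on the other side, had 16.5 and 17.4 CPM in shRALY, against 6.14 and 7.87 CPM in shControl, a log2 difference of 1.28 (SE 0.19, edgeR adjusted p = 7.69e-06). Both lie far below the 5.74 of IFI27, which was selected for its change; the difference between these genes was not tested.

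**Figure D3:**
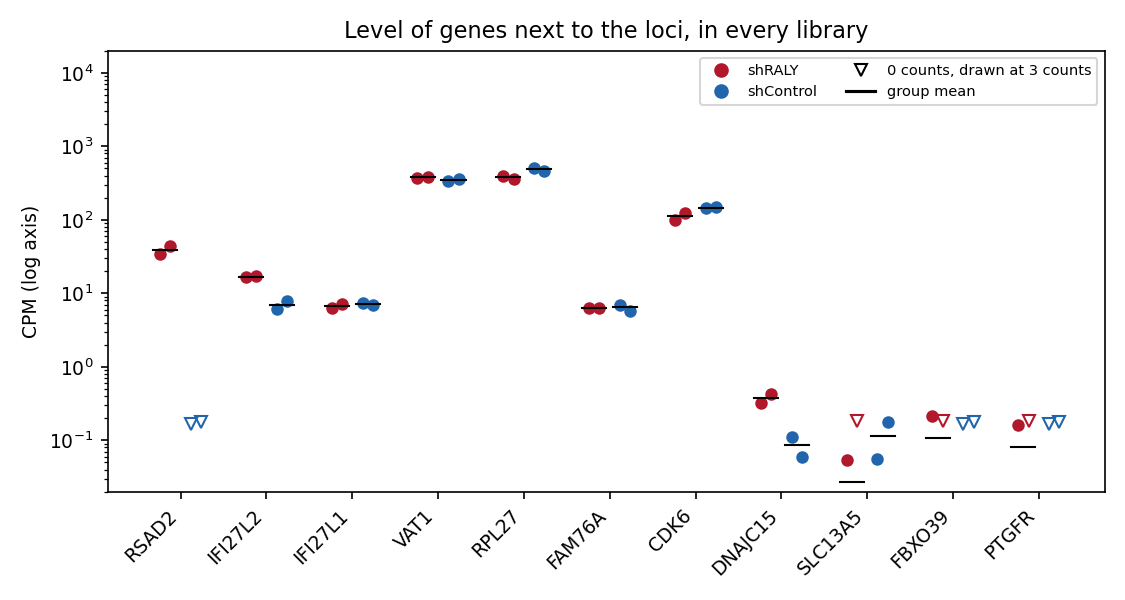
Level in every library, in CPM on a log axis, of the neighbouring genes with any read, with shRALY to the left of shControl; bars are group means and open triangles are libraries with no read, drawn at the 3-count floor. RSAD2 and IFI27L2 lie higher in shRALY, at 34.5 and 44.5 CPM and at 16.5 and 17.4 CPM, against no read and 6.14 and 7.87 CPM in shControl, while the libraries of the groups overlap for IFI27L1 and FAM76A.

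Of 12 further tested genes whose symbol begins with IFI, a naming group that covers the IFIT and IFITM families and IFIH1, 10 were higher in shRALY and none lower, by edgeR or by DESeq2 or at an unadjusted p under 0.05 in edgeR, with a median log2 difference of 3.51. Only IFI27L1 and IFITM10 among them did not pass. Of the 12, 1 had fewer than 10 counts in each shControl library and passed the filter on low counts only through shRALY. Of 8 tested genes whose symbol begins with SAMD, for the sterile alpha motif domain, 3 were higher and 3 lower in edgeR, and 3 higher and 2 lower in DESeq2, with a median log2 difference of -0.21. SAMD4B, the gene not called in DESeq2 (adjusted p = 0.0587), had a log2 difference of -0.31 in edgeR (adjusted p = 0.0347), which was also lost in 3 of the 4 fits that left out 1 library. SAMD4A, a translational repressor, averaged 62.2 CPM in shRALY and 19.9 CPM in shControl (log2 1.64, edgeR adjusted p = 5.18e-10). SAMD11 averaged 10.8 CPM in shRALY and 29.9 CPM in shControl (log2 -1.47, edgeR adjusted p = 2.40e-07). SAMD1, which binds unmethylated CpG islands, averaged 18.7 CPM in shRALY and 40.6 CPM in shControl (log2 -1.12, edgeR adjusted p = 9.43e-07).

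Genes of interferon signalling were compared as ligands, receptors, kinases and factors, and 12 of 16 were higher in shRALY, 1 was lower and 3 did not pass, with a median log2 difference of 1.72. Over all tested genes, 20.6% were higher and 20.4% lower. The 12 include IFNB1, IFNL1, IFNL2 and IFNL3, which had no shControl count. These 4 passed the filter on low counts only through their shRALY libraries and could not have been called lower. Their part of the count was thus set by the filter, and they raise the median. Among the ligands, IFNL1 had 21.3 and 21.9 CPM in shRALY and IFNB1 had 4.95 and 6.91 CPM, against no count in shControl for either. IFNL1 was at least 252-fold and IFNB1 at least 69.1-fold higher (edgeR adjusted p = 6.46e-14 and 1.25e-09). IFNL2 and IFNL3, also without shControl counts, share 32.0% and 33.0% of their sequence words with other genes, and their counts are uncertain.

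Receptor chains differed less than the ligands. IFNAR1 averaged 69.6 ± 0.492 CPM in shRALY and 54.5 ± 8.22 CPM in shControl (log2 0.35, edgeR adjusted p = 0.0241), and the call was lost without shRALY replicate 1 or 2 (log2 0.37 and 0.35, adjusted p = 0.172 and 0.189), without shControl replicate 2 (log2 0.22, 0.0674) and with library size alone as the scaling (log2 0.30, 0.0556). IFNLR1, the chain specific to type III interferon, averaged 3.44 CPM in shRALY and 2.78 CPM in shControl and did not pass (log2 0.31, edgeR adjusted p = 0.432). IFNAR2 (log2 0.59, edgeR adjusted p = 0.149, not called) and IL10RB (log2 1.49, adjusted p = 0.00945) overlap another annotated gene on the same strand, so their counts are uncertain. The IL10RB call was lost without shControl replicate 1 (log2 1.18, adjusted p = 0.0565). Of the kinases, TYK2 averaged 40.8 ± 1.9 CPM in shRALY and 57.2 ± 7.49 CPM in shControl (log2 -0.49, edgeR adjusted p = 0.00303), which was not called without shRALY replicate 1 (log2 -0.43, adjusted p = 0.111). JAK1 had a log2 difference of 0.31 (edgeR adjusted p = 0.015), lost without shRALY replicate 1 or 2 (log2 0.32 and 0.31, adjusted p = 0.196 and 0.216).

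Changes among the factors below the receptors were unequal. STAT2 averaged 139 ± 3.44 CPM in shRALY and 22.5 ± 3.19 CPM in shControl (log2 2.62, SE 0.13, edgeR adjusted p = 9.00e-14). IRF7, which amplifies interferon production, averaged 119 ± 1.19 CPM in shRALY and 4.30 ± 0.152 CPM in shControl (log2 4.79, SE 0.15, edgeR adjusted p = 4.70e-17). IRF3, which is present before infection and activated by phosphorylation, did not pass, at 71.3 CPM in shRALY and 67.5 CPM in shControl (log2 0.08, edgeR adjusted p = 0.617). IRF1, a factor that binds the same kind of element, had 148 and 166 CPM in shRALY, against 16.1 and 17.6 CPM in shControl (log2 3.22, edgeR adjusted p = 3.58e-15), and genes on the opposite strand overlap 22.0% of its exonic bases. IRF9 shares all of its sequence words with an overlapping annotated gene, and its log2 difference of 0.90 (edgeR adjusted p = 0.0333) did not pass in DESeq2 (adjusted p = 0.113) or, in edgeR, without shRALY replicate 1 (log2 0.62, adjusted p = 0.325) or shControl replicate 1 (log2 0.55, 0.224).

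**Figure D4:**
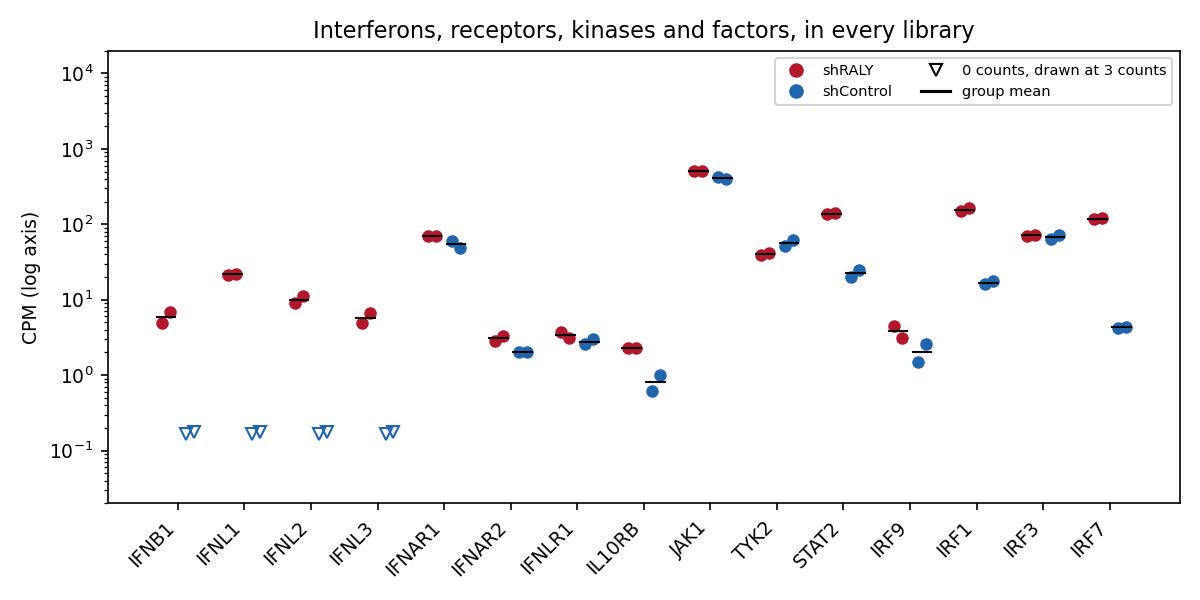
Level in every library, in CPM on a log axis, of the interferon signalling genes named in the text, with shRALY to the left of shControl and open triangles for libraries with no read, drawn at the 3-count floor. STAT2 and IRF7 lie higher in shRALY, at means of 139 and 119 CPM, against 22.5 and 4.30 CPM in shControl, while the IRF3 libraries of the groups overlap.

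A list of 50 interferon-stimulated genes outside the members, chosen with earlier results of these data known, had all 50 higher in shRALY and none lower. This held in edgeR, at an adjusted p or an unadjusted p under 0.05, and in DESeq2, and the median log2 difference was 2.95. The list holds every IFI-named gene called higher above except IFI27L2, and also RSAD2 and NMI, so these counts are not separate observations. MX1, a GTPase that blocks influenza virus, averaged 422 ± 19.3 CPM in shRALY and 1.36 ± 0.574 CPM in shControl (log2 8.28, edgeR adjusted p = 1.27e-19). IFIT2, which binds viral RNA, had 1002 and 1175 CPM in shRALY, against 4.30 and 4.23 CPM in shControl (log2 7.99, edgeR adjusted p = 2.38e-20).

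Partners of XAF1 and CMPK2 did not share the change of the 10 genes in one direction. Of 8 genes for XIAP and the proteins it binds, 3 were higher, 1 was lower and 4 did not pass, with a median log2 difference of 0.14. XIAP averaged 114 ± 5.42 CPM in shRALY and 80.6 ± 11.5 CPM in shControl (log2 0.51, edgeR adjusted p = 0.00138), which was not called without shRALY replicate 1 (log2 0.46, adjusted p = 0.0606). BIRC2, a relative of XIAP in the inhibitor of apoptosis family, averaged 91.0 CPM in shRALY and 46.9 CPM in shControl (log2 0.95, edgeR adjusted p = 8.20e-07). CASP9, the initiator caspase of the mitochondrial pathway, averaged 9.28 CPM in shRALY and 14.1 CPM in shControl (log2 -0.60, edgeR adjusted p = 0.00872), which was not called without shRALY replicate 1 (log2 -0.57, adjusted p = 0.108) or replicate 2 (log2 -0.62, 0.0713).

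Of 11 genes of nucleotide phosphorylation and deoxynucleotide supply, 3 were higher, 5 were lower and 3 did not pass, with a median log2 difference of -0.11. CMPK1, the cytosolic counterpart of CMPK2, averaged 149 ± 3.94 CPM in shRALY and 139 ± 30.2 CPM in shControl and did not pass (log2 0.10, edgeR adjusted p = 0.575), though it was called higher without shControl replicate 1 (adjusted p = 0.00161). TK1, the thymidine kinase of dividing cells, fell to 38.7 ± 1.94 CPM in shRALY, against 255 ± 5.65 CPM in shControl (log2 -2.72, edgeR adjusted p = 9.60e-15). SAMHD1, a deoxynucleotide hydrolase that restricts retroviruses, rose to 144 ± 6.91 CPM in shRALY, against 41.2 ± 1.58 CPM in shControl (log2 1.81, edgeR adjusted p = 1.07e-11). DCK, which phosphorylates deoxycytidine, averaged 8.65 CPM in shRALY and 32.4 CPM in shControl (log2 -1.90, edgeR adjusted p = 3.83e-09).

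The promoter motif was then set beside the whole table, leaving out the 10 genes. Of 13161 tested protein-coding genes, 80.7% could be matched to a RefSeq window. Among 418 other tested genes with the GAAA, 2 bases, GAAA core in a window, 181 (43.3%) were higher in shRALY and 66 (15.8%) lower. Among 10194 without it, 2204 (21.6%) were higher and 2325 (22.8%) lower. Differences of at least 10-fold upward occurred in 30 genes with the motif (7.18%) and 38 without it (0.373%), so that genes with no match in these 300 bases were the larger number among those that rose this far. These shares are descriptions and the difference was not tested.

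Among genes outside the 10, those whose levels over the 4 libraries lay closest to the mean profile of the 10, by Euclidean distance in log2(CPM + 0.5), were HLA-B, ATF3, FAM129A, PLEKHA4, CXCL8 and TRIM22, at distances of 0.65 to 1.22. The likeness rests on 4 libraries that split into 2 groups, and IFI27, the closest of the 10 themselves, lay at 0.62. The other 9 lay at 1.88 to 5.68. The outside genes were picked as the nearest of all tested genes, and the distance counts level as well as change. Nothing is thus read from their lying nearer than those 9 members. HLA-B, which presents peptides to T cells and whose reads can match other HLA class I genes, averaged 44.9 ± 3.75 CPM in shRALY and 2.11 ± 0.49 CPM in shControl. TRIM22, an antiviral ubiquitin ligase, averaged 68.5 ± 1.38 CPM in shRALY and 2.89 ± 0.10 CPM in shControl. ATF3, FAM129A, PLEKHA4 and CXCL8 averaged 67.4, 37.9, 35.1 and 38.4 CPM in shRALY and 2.21, 2.02, 1.14 and 2.53 CPM in shControl.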

How the data were processed

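The authors deposited 1 file of raw counts per gene for each of 4 libraries. Per the labels' protocols, RNA was selected on poly-T beads. The submitters' processing notes name HISAT2 2.0.5, featureCounts 1.5.0-p3, DESeq2 1.20.0 and hg38; strandedness and multi-mapping rules were not given in the sources used here. All 58735 identifiers matched GENCODE 29 on GRCh38. Groups came from sample titles. The members and lists were chosen with earlier results of these data known. Named genes were RALY, the members, per list up to 4 genes of smallest adjusted p and those not called, and the 6 genes most like the members.

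Under R 4.3.3, edgeR 4.0.16 tested the counts (filterByExpr minimum count 10 and total 15, TMM scaling, robust quasi-likelihood F-test, 2 residual degrees of freedom, Benjamini-Hochberg adjustment over 15912 genes, threshold 0.05); the script was checked on simulated counts. The filter left out 42823 genes. DESeq2 1.42.0 was an alternative. CPM uses TMM-scaled totals. Where shControl held no count, a fold is a bound against 3 counts over the group; with 1 to 3 counts the ratio has an exact 95% binomial interval. Intervals and floors cover counting error only. Shared sequence was the share of 50-base words found in another gene, or exonic overlap. Named genes above 20% have this remarked on where they appear, apart from KRT8 (22.1% of its words) and from LYZ and FCGR3A, which had no read. Some listed genes are not reported here by name.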

Additional observations from a re-analysis of the deposited data

How the results depend on the processing

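Alternatives were each library left out, the replicate block, DESeq2, scaling by RLE or by library size alone, testing all genes without a filter, and requiring 10 CPM in 2 libraries. The 10 genes were selected on this contrast, so their values under the alternatives are a description. All 10 kept their direction in every alternative that gave a value, and the 10 CPM filter gave none for EPSTI1. Under that filter the members' median log2 difference was 6.83 over 9 genes, and 7 of 9 signalling genes were higher, since fewer genes were tested. Leaving out 1 library moved the median between 6.25 and 6.97 (6.97 without shControl replicate 2), XAF1 between 7.73 and 10.95 and EPSTI1 between 4.41 and 9.11. It moved calls over the whole table between 2040 and 3559 higher and 1897 and 3499 lower, and calls among genes with the promoter motif between 119 (without shRALY replicate 2) and 192; a lone library is assumed to vary like the other group. Library size alone gave 2894 genes higher and 3706 lower, against 3274 and 3245, and DESeq2 gave 2837 and 2628.

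The labels give no pairing. With the replicate block, 3639 genes were higher and 3619 lower, and the counts of higher genes among interferon-stimulated, signalling, neighbouring, SAMD and IFI-named genes were equal, with 190 against 181 among genes with the promoter motif; deviations of same-numbered libraries correlated at 0.21 over 11225 genes, with 2 pairs only. With 2 libraries a group and shControl counts of 0 to 3 in IFI44L, XAF1 and EPSTI1, depth limits the size of those differences.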
